A study of Mus musculus with 3 samples.

Results

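Lymphocytes that carried killer cell receptor transcripts together with T cell receptor or CD3 transcripts were examined in mouse liver by single-cell RNA sequencing, and are called killer-receptor T cells here. The cells were selected on their UMI counts, unique molecular identifiers that each stand for a counted transcript. A barcode was counted as such a cell when it had at most 30% mitochondrial UMIs, at least 1 UMI in the CD3/TCR genes Cd3d, Cd3e, Cd3g, Trac and Trdc, and at least 2 UMIs in the killer-receptor genes Klrb1b, Klrb1c, Klrc1, Klrc2, Cd160, Cd7 and Trgc4. It also had at most 1 UMI in the checkpoint genes Pdcd1, Ctla4, Foxp3, Tnfsf4, Tnfrsf4 and Havcr2, and 0 UMIs in Cd8a, Cd8b1 and Cd79a. This selection took 656 of 36990 barcodes, 422 of 11245 in CON, 173 of 12984 in HFD and 61 of 12761 in CCL4. The series compared models of metabolic steatohepatitis and fibrosis, all in wild-type mice that were 8 weeks old at the start. CON was the control liver, HFD the liver after 4 months on a diet with 60% of its kcal as fat, and CCL4 the liver after 3 months on chow and then 4 weeks of carbon tetrachloride (10% solution, 0.1 mL, 2 injections a week). Each condition was 1 library of cells pooled from 2 mice, so conditions could be described but not tested, and the libraries held 49613255, 34985786 and 34061186 UMIs in the order CON, HFD, CCL4. Hepatocytes and non-parenchymal cells had been isolated by collagenase perfusion and mixed in equal numbers before loading, so a share of barcodes is a share of that mixture and not of the liver.

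The liver holds many lymphocytes that sense target cells through killer cell lectin-like receptors. These receptors, among them the NKG2 proteins encoded by Klrc1 and Klrc2 and the NK1.1 family encoded by Klrb1b and Klrb1c, either restrain or trigger killing. Natural killer (NK) cells carry them without a T cell receptor. Invariant natural killer T (NKT) cells, gamma delta T cells and some innate-like alpha beta T cells carry them beside a rearranged receptor, whose constant regions come from Trac and the Trbc genes or from Trdc and the Trgc genes.

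Killer-receptor T cells were most frequent in the CON library and least frequent in the CCL4 library. They made up 3.77% of the barcodes within the mitochondrial limit in CON (exact binomial 95% interval 3.42 to 4.13), 1.33% in HFD (1.14 to 1.54) and 0.478% in CCL4 (0.366 to 0.614). Of the barcodes with a CD3/TCR UMI, they were 422 of 2298 in CON (18.4%), 173 of 2173 in HFD (7.96%) and 61 of 1980 in CCL4 (3.08%). None of the intervals overlapped, but they cover counting error only, and the spread between livers could not be measured. Barcodes that met the other conditions with 0 CD3/TCR UMIs were also most frequent in CON. They made up 7.83% of the barcodes within the mitochondrial limit in CON, 1.44% in HFD (1.24 to 1.66) and 1.25% in CCL4 (1.07 to 1.46). The killer-receptor T cells had a median of 2521 UMIs in CON, 2391 in HFD and 2233 in CCL4. With every barcode thinned to 1000 UMIs, at which no barcode was left out, the expected shares of the barcodes with a CD3/TCR UMI were 10.7%, 2.90% and 1.00%, in the same order. The cells of the 3 libraries also differed in hepatocyte transcripts, with a median of 4.64% of UMIs from 21 hepatocyte genes in CON, 14.2% in HFD and 19.3% in CCL4. Among barcodes with at most 10% of UMIs from these genes, the share of the barcodes with a CD3/TCR UMI was 19.6% in CON (392 cells) and 12.4% in HFD (22 cells), and 0 cells were left in CCL4. Of all barcodes, 36 were shared between CON and HFD, 49 between CON and CCL4 and 52 between HFD and CCL4, and no killer-receptor T cell had a barcode used by another killer-receptor T cell.

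**Figure D1:**
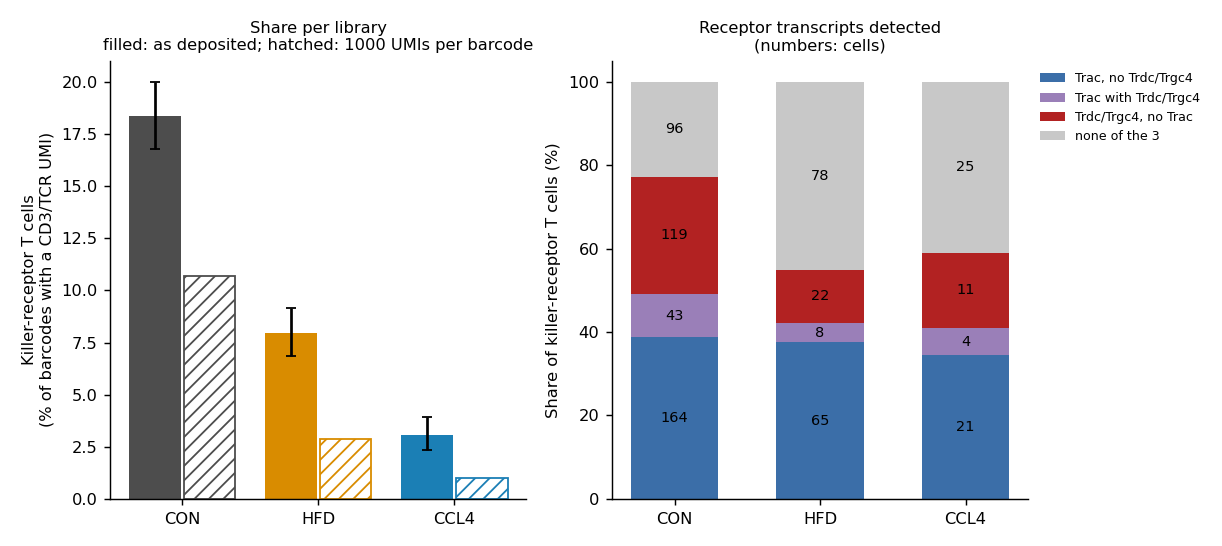
Left, killer-receptor T cells as a percentage of barcodes with a CD3/TCR UMI in each library, as deposited (filled, with exact binomial 95% intervals) and expected at 1000 UMIs per barcode (hatched). Right, the receptor transcripts detected in those cells, as a share of the cells of each library with cell numbers in the bars; the share falls from 18.4% in CON to 3.08% in CCL4, and cells with none of Trac, Trdc and Trgc4 make up 22.7%, 45.1% and 41.0%.

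Many cells sat close to the limits of the selection. Exactly 2 killer-receptor UMIs were seen in 107 cells of CON (25.4%), 110 of HFD (63.6%) and 44 of CCL4 (72.1%), and 113, 34 and 23 cells had a single CD3/TCR UMI. Just outside, with 1 killer-receptor UMI and every other condition met, lay 166, 253 and 146 barcodes. B cells (a Cd79a UMI and a Cd79b or Ms4a1 UMI), which should hold neither kind of transcript, met both positive conditions in 17 of 764 barcodes in CON (2.23%), 2 of 338 in HFD (0.592%) and 0 of 206 in CCL4, which allows a share of up to 1.46%. Those without a CD3/TCR UMI had a median of 1974.5 UMIs in CON, 2391.5 in HFD and 1975 in CCL4. Taken alone, a CD3/TCR UMI was found in 8.90%, 8.88% and 10.2% of B cells, and at least 2 killer-receptor UMIs in 6.15%, 1.18% and 0.0%. A killer-receptor cell needed the first of these conditions alone to be counted. The 25% of barcodes richest in hepatocyte transcripts gave 0 such barcodes among 2655, 3189 and 3164.

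The genes that chose the cells are given as a description. Klrc2, an activating NKG2 receptor, was seen in 64.9% of the cells in CON, 41.0% in HFD and 37.7% in CCL4. Klrc1, its inhibitory counterpart, was seen in 45.7%, 37.6% and 26.2%, and Klrb1c, which encodes NK1.1, in 42.9%, 42.8% and 34.4%. Cd160, a receptor of the immunoglobulin superfamily, was found in 27.0%, 29.5% and 29.5% of cells, Trgc4 in 23.0%, 13.3% and 14.8% and Klrb1b in 16.4%, 11.6% and 9.84%. Klrc1, Klrc2 and the unlisted Klrc3 are closely similar copies, so reads at the 3′ end may be split between them. Il2ra, the interleukin 2 receptor alpha chain and a proposed marker that the selection did not use, had 49 UMIs in CON, 8 in HFD and 0 in CCL4, and 8.53% of CON cells carried one against 0.431% of B cells, 5.59% of NK-like cells and 7.04% of T cells without killer-receptor UMIs, sets that are defined next.

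To follow the cells on genes outside the selection, 3 sets were built for comparison. NK-like cells met the same conditions but had 0 CD3/TCR UMIs (877, 187 and 160 cells in CON, HFD and CCL4). T cells without killer-receptor UMIs met the same conditions with 0 of those UMIs (554, 957 and 1032 cells). CD8 T cells had a CD3/TCR UMI, a Cd8a or Cd8b1 UMI and 0 Cd79a UMIs (833, 576 and 592 cells). This set was not limited in killer-receptor or checkpoint UMIs, and a Ctla4 UMI was held by 30.3%, 19.6% and 25.8% of its cells, so a difference from it in genes expressed with the checkpoint genes is not independent of the selection. UMIs were summed by set and library, levels are given as CPM, the UMIs of a gene per 1000000 of the summed UMIs, and the sets were compared by edgeR's quasi-likelihood test with the library as a term, with the 21 genes of the selection left out and Benjamini-Hochberg adjustment over the other 10187 genes tested. A fold change is on the log2 scale with its standard error, and 3 libraries are the replicates throughout. Where sets are said not to overlap, this describes the 3 library values of the genes named. The share of all tested genes without overlap was not counted.

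On the NK gene Ncr1, killer-receptor T cells stood between NK-like cells and the other T cells. Ncr1, which encodes the NK activating receptor NKp46, had 143 CPM in CON, 80.6 in HFD and 69.8 in CCL4. It had 312, 271 and 188 in NK-like cells, 19.7, 4.74 and 2.21 in CD8 T cells and 2.67, 4.02 and 2.05 in T cells without killer-receptor UMIs. No value of the killer-receptor T cells overlapped with those of any of the other sets. Between NK-like cells and killer-receptor T cells, single cells showed the same order. Ncr1 was detected in 26.5% of killer-receptor T cells of CON, 12.1% of HFD and 14.8% of CCL4. It was detected in 56.7%, 42.8% and 32.5% of NK-like cells, and in 3.30%, 0.649% and 0.0% of B cells. In the CON library, 189 of 422 killer-receptor T cells (44.8%) held UMIs both of 12 NK genes and of 6 T cell genes that the selection did not use, 121 held NK genes alone, 95 T cell genes alone and 17 neither. Both kinds were held by 32 of 173 cells in HFD (18.5%) and 7 of 61 in CCL4 (11.5%), by 44.4%, 18.1% and 9.46% of CD8 T cells and by 30.4%, 10.2% and 11.2% of NK-like cells. The T cell genes were seen in 67.3%, 48.6% and 39.3% of killer-receptor T cells, beside 68.2%, 48.0% and 49.0% of T cells without killer-receptor UMIs and 33.3%, 15.0% and 16.9% of NK-like cells. The cells are named by their selection.

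**Figure D2:**
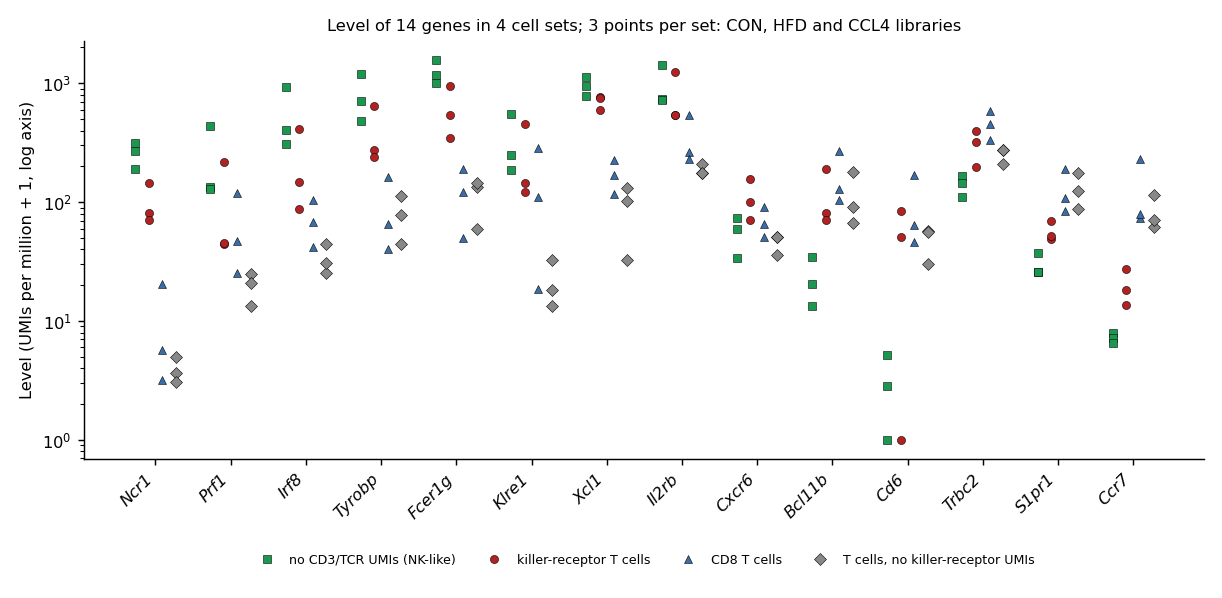
Level of 14 genes (CPM plus 1, log axis) in NK-like cells, killer-receptor T cells, CD8 T cells and T cells without killer-receptor UMIs, with a point for each of the 3 libraries. Ncr1, Tyrobp and Fcer1g step down from NK-like cells to killer-receptor T cells to the 2 other T cell sets, while Bcl11b and Trbc2 are lowest in NK-like cells.

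Compared with NK-like cells, killer-receptor T cells were higher in T cell genes and lower in a small number of NK genes. The sets were split by their CD3/TCR UMIs, so a higher level of genes expressed with those is not independent of how the cells were chosen. In all, 57 genes were higher (0.56% of the genes tested) and 32 lower (0.314%), and the median log2 fold change of all genes was -0.02. Of 18 T cell genes tested outside the selection, 9 were higher and 0 lower, with a median of 1.11. Bcl11b, the transcription factor that maintains T cell identity, had 188 CPM in CON, 80.6 in HFD and 69.8 in CCL4, against 33.8, 12.5 and 19.3 in NK-like cells. All 3 libraries of killer-receptor T cells lay above all 3 of NK-like cells, and the fold change was 2.40 ± 0.20 (edgeR adjusted p = 3.2e-07). Themis, needed for thymic selection, had 54.7, 39.2 and 38.1 CPM against 1.45, 0.0 and 0.0, Cd6, a surface receptor that tunes receptor signalling, 83.5, 50.1 and 0.0 against 1.82, 4.17 and 0.0, and Lat, the adaptor downstream of the receptor, 89.6, 58.8 and 31.7 against 19.2, 20.8 and 19.3. Themis and Lat did not overlap between the sets, whereas Cd6 had 0 UMIs in both sets of CCL4. Trbc2, the second beta constant gene, was also higher (fold change 1.16 ± 0.19, edgeR adjusted p = 0.0019), whereas Trbc1 did not pass the test (0.03 ± 0.16, adjusted p = 1.0).

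Gamma delta receptor genes were higher as well, in 3 of 4 genes tested, with a median of 3.82. The gamma genes Trgv2, Trgc2 and Trgc1 were called, and the delta variable gene Trdv4 was not (-1.39 ± 0.52, edgeR adjusted p = 0.41). Trgc2 had 53.1, 56.6 and 19.0 CPM in killer-receptor T cells and 1.45, 6.25 and 2.76 in NK-like cells, in the order CON, HFD, CCL4. The sets did not overlap (fold change 4.36 ± 0.49, edgeR adjusted p = 3.3e-05). Trgc1 had 48.6, 26.1 and 12.7 against 5.08, 2.08 and 0.0, and the variable gene Trgv2 rested on 18, 13 and 1 UMIs.

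On the NK side, 5 of 20 genes tested were lower than in NK-like cells and 0 higher, with a median of -0.77. Besides Ncr1 (-1.42 ± 0.24, edgeR adjusted p = 0.0023) they were Irf8, a transcription factor of NK and myeloid cells, Prf1, which encodes perforin, and the signalling adaptors Fcer1g and Tyrobp. Tyrobp, the adaptor DAP12, had 641, 274 and 241 CPM in killer-receptor T cells and 1203, 702 and 483 in NK-like cells. Fcer1g had 949, 540 and 343 against 1558, 1172 and 1007. Tyrobp overlapped between the sets across libraries and was lower in each library, while Fcer1g did not overlap. Of 8 B cell genes tested, Igkc and Cd74 were called lower (median -1.57), and the list summed to 274, 889 and 159 CPM against 839.5, 4542 and 6061. A single NK-like cell held 1020 of 1503 Igkc UMIs in HFD and another 2050 of 2066 in CCL4. B cells and plasmacytoid dendritic cells also express Irf8, and their part in its difference was not tested. Of the killer lectin genes outside the selection, 0 of 17 were called in either direction, with a median of -0.34. Klrk1, which encodes NKG2D, had 453, 159 and 159 CPM against 435, 212 and 141, and Klrd1, the CD94 partner of the NKG2 proteins, 507, 233 and 260 against 619, 360 and 417. The chemokine genes Ccl3 and Ccl4 were lower (-1.02 ± 0.24 and -0.92 ± 0.21, edgeR adjusted p = 0.044 and 0.035), and 0 of 20 immediate-early and 0 of 21 hepatocyte genes were called.

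Perforin, NKp46 and the Fc receptor gamma chain are 3 of the 5 NK genes that were lower than in NK-like cells. All 5 were higher than in T cells without killer-receptor UMIs. The promoters of these 3 are shown with matches to a short core sequence. RUNX factors, which are active in NK cells and T cells alike, are known to recognise that core, and their binding here was not tested. The stretches run from 250 bases before to 50 after the gene's start on the gene's own strand (RefSeq, GRCm38.p6), and capitals mark ACCACA or its reverse complement TGTGGT. Ncr1 lies at chr7:4337465-4337764 on the plus strand, Fcer1g at chr1:171234300-171234599 on the minus strand and Prf1 at chr10:61297586-61297885 on the plus strand.
Ncr1: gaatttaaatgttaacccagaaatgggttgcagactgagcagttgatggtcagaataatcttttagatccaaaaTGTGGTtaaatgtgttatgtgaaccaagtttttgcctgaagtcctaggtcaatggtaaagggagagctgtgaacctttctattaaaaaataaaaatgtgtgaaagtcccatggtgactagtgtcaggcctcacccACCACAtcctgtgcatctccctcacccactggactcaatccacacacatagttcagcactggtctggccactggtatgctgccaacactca
Fcer1g: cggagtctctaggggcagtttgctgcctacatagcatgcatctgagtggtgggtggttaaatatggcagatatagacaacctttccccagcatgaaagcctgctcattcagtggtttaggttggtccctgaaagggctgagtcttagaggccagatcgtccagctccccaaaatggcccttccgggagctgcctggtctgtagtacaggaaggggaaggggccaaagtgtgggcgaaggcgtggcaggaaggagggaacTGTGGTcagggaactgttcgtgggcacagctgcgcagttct
Prf1: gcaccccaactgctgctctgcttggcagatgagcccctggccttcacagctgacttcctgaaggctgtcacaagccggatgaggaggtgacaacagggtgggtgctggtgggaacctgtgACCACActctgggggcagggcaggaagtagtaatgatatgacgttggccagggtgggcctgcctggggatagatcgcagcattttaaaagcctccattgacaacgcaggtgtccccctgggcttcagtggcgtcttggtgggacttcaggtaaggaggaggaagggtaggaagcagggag
The core was found 2 times in Ncr1 and 1 time each in Fcer1g and Prf1. It was not found in Irf8, whose promoter is not shown, and no promoter entry was found for Tyrobp. The 3 promoters shown are therefore those that held the core. Of all 32851 promoters of this length, 16.8% held it on either strand, as did 6 of the 18 promoters matched for the 22 NK genes listed. A match of 6 letters describes the sequence and does not show binding.

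Among the other genes higher than in NK-like cells, Icos, a costimulatory receptor, had 197, 87.1 and 50.7 CPM against 50.5, 43.7 and 35.9 (1.53 ± 0.23, edgeR adjusted p = 0.00067), and Cxcr6, a homing receptor of liver-resident lymphocytes, 156, 100.2 and 69.8 against 73.0, 58.3 and 33.1 (1.00 ± 0.21, adjusted p = 0.024). Atp8a2, Adam19, Tmem64, Dtx1, Lyst, Ehd3 and Gramd3, which belong to none of the lists described here, were also among the 12 highest fold changes of abundant genes. Of 13 recirculation genes, Ccr7, Lef1 and S1pr1 were higher and 2 were lower. Of 16 NKT and innate-like alpha beta genes, 4 were higher, with a median of 0.67, namely Cxcr6, Il4, Slamf1 and Izumo1r. Il4, the type 2 cytokine, had 21.3, 13.1 and 6.34 CPM against 5.81, 0.0 and 0.0, and Izumo1r had 15.9, 10.9 and 0.0 against 0 UMIs in all 3 libraries of NK-like cells. Of the defining NKT genes, Zbtb16, which encodes PLZF, had 43, 2 and 1 UMIs and did not pass against NK-like cells (0.78 ± 0.50, edgeR adjusted p = 0.84). The invariant alpha gene segment Trav11 had 0 UMIs in every set. Since 3′ reads rarely reach variable segments, that count cannot show whether NKT cells were present. Siglech and Tcf4, genes of plasmacytoid dendritic cells, were lower (-4.19 ± 0.48 and -1.95 ± 0.22, edgeR adjusted p = 3.7e-05 and 3.3e-05), and Siglech was seen in 34, 7 and 5 NK-like cells and in 2, 0 and 0 killer-receptor T cells. NK-like cells whose killer-receptor UMIs were all Cd7 numbered 59, 22 and 9.

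Without the CON library, 21 genes were higher than in NK-like cells, and without the CCL4 library 19 were lower. Without the library as a term, 3 genes were higher and 0 lower. The replicates are 3 pools of mice under different conditions, so these p-values measure how alike a difference was across those pools.

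Against T cells without killer-receptor UMIs, the cells were far higher in NK, killing and type 1 genes and lower in genes of recirculating T cells. There were 572 genes higher (5.61%) and 606 lower (5.95%), with a median log2 fold change of -0.04. Of 17 killer lectin genes tested outside the selection, 15 were higher (median 3.37), as were 19 of 20 NK genes (2.57), 14 of 18 type 1 genes (1.48) and 9 of 13 granule genes (1.93), and 0 genes of these 4 lists were lower. These lists share genes with each other, and their genes tend to be expressed with those of the selection, so the direction is not independent of how the cells were chosen. Klra4, an activating Ly49 receptor, had 140, 19.6 and 50.7 CPM against 1.78, 1.21 and 2.05 (5.02 ± 0.46, edgeR adjusted p = 1.2e-06), although reads may be split among the Ly49 copies. Gzma, a granule protease, had 1458, 638 and 419 against 37.8, 162 and 64.8, and Gzmb 1069, 659.9 and 311 against 68.1, 148 and 65.2. Both proteases lay above all libraries of the other set.

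The type 1 genes included secreted products and their receptors. Xcl1, a chemokine that attracts cross-presenting dendritic cells, had 765, 751 and 596 CPM against 31.6, 129.9 and 102 (2.93 ± 0.30, edgeR adjusted p = 3.5e-06). Ifng had 191, 159 and 171 against 22.7, 77.6 and 40.2 (1.76 ± 0.29, adjusted p = 0.00075), and an Ifng UMI was found in 32.7%, 25.4% and 31.1% of killer-receptor T cells and in 1.29%, 0.649% and 0.0% of B cells. Il2rb, the beta chain of the receptor for interleukins 2 and 15, had 1246, 538 and 539 against 176, 208 and 174, and Tbx21, which encodes the type 1 regulator T-bet, 71.3, 54.4 and 44.4 against 11.6, 17.3 and 11.1. These 4 genes, all from those called higher, did not overlap between the sets, which describes them and adds no test.

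Against T cells without killer-receptor UMIs, genes of residence and recirculation parted in opposite directions. The sets were split by their killer-receptor UMIs, so the direction of genes expressed with or against those is not independent of the selection. Against NK-like cells, 1 of 16 residency genes was higher and 0 lower. Of 16 residency genes, 12 were higher and 0 lower (median 1.02), among them Itga1, the collagen-binding integrin CD49a, with 146, 107 and 57.1 CPM against 21.8, 39.0 and 20.9 (1.83 ± 0.24, edgeR adjusted p = 5.8e-05). Of 13 recirculation genes, 7 were lower and 0 higher (median -0.72). Ccr7, the lymph node homing receptor, had 26.6, 17.4 and 12.7 against 114, 60.3 and 69.3 (-2.32 ± 0.26, adjusted p = 9.8e-06), and S1pr1, needed to leave tissue, 68.3, 47.9 and 50.7 against 175, 86.5 and 123 (-1.37 ± 0.18, adjusted p = 5.6e-05). Neither of the pair overlapped.

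Il17a, the defining cytokine gene of interleukin 17 T cells, was near the detection limit in killer-receptor T cells. Of 14 genes tested from the interleukin 17 list, 3 were lower than in T cells without killer-receptor UMIs and 0 higher (median -0.45). Il17a had 3.04, 8.71 and 0.0 CPM against 6.68, 49.5 and 4.51 (-2.09 ± 0.58, edgeR adjusted p = 0.026). Over all 656 cells, Il17a had 8 UMIs and Il23r, a receptor that sustains this programme, had 0.

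Hepatocyte transcripts were lower too, in 19 of 21 genes (median -0.58). Alb had 4972, 17024 and 36691 CPM in killer-receptor T cells and 13235, 19534 and 41280 in T cells without killer-receptor UMIs. Without barcodes above 10% hepatocyte transcripts, a limit set on these same genes that left 22 killer-receptor T cells in HFD and 0 in CCL4, the fold changes of 7 of them, Alb among them at 0.050, were positive, which is given as a description. The neutrophil genes S100a8 and S100a9 and the lipid genes Sqle and Cpt1a were lower as well, and the part of free RNA in them was not tested. Without the CON library 124 genes were higher and 92 lower, without the CCL4 library 305 were lower, and without the library as a term the counts were 5 and 0.

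Fewer genes were called against CD8 T cells, a set that was not limited in killer-receptor UMIs. The part of that definition in the number of calls was not tested. Here 126 genes were higher in killer-receptor T cells (1.24%) and 43 lower (0.422%), with a median log2 fold change of -0.02. Killer lectin and NK genes were again higher, in 12 of 17 (median 2.19) and 13 of 20 genes (1.95), with 0 lower. Only the killer-receptor T cells had to hold at least 2 killer-receptor UMIs, so this direction is not independent of the selection. Fcer1g and Tyrobp, with 187, 121 and 49.4 and 161, 65.0 and 39.0 CPM in CD8 T cells, had fold changes of 2.36 ± 0.20 and 2.12 ± 0.15 (edgeR adjusted p = 5.8e-07 and 1.6e-07). The granule genes parted: of 13 tested, 4 were higher (Gzmc, Serpinb6b, Serpinb9 and Ctsw) and 1 was lower (Gzmk), with a median of 0.19. Nkg7 and Gzma did not pass (-0.02 ± 0.19 and 0.13 ± 0.43, both edgeR adjusted p = 1.0). Gzmk, the granzyme of memory CD8 T cells, had 22.8, 24.0 and 25.4 CPM against 107, 77.8 and 71.5 (-1.999 ± 0.22, edgeR adjusted p = 1.8e-05).

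Several cytokine and receptor genes set the cells apart from CD8 T cells. Il2ra had 37.2, 17.4 and 0.0 CPM against 8.55, 2.71 and 2.95 (2.06 ± 0.39, edgeR adjusted p = 0.0051), with the CCL4 value on the side of the lower group, and did not pass against NK-like cells or T cells without killer-receptor UMIs (0.30 ± 0.35 and 0.39 ± 0.33, adjusted p = 0.98 and 0.51). Il4 had 28, 6 and 1 UMIs against 1, 0 and 0. Gata3, a regulator of type 2 lymphocytes, had 95.6, 47.9 and 31.7 CPM against 44.2, 10.8 and 17.7 (1.31 ± 0.24, adjusted p = 0.0034), and Xcl1 was higher by 2.01 ± 0.28 (adjusted p = 0.00024). Of 13 recirculation genes, 6 were lower and 0 higher (median -1.04), led by Dapl1 (-5.16 ± 0.48) and Ccr7 (-2.75 ± 0.25), and the T cell genes Themis (-1.52 ± 0.21) and Cd5 (-1.18 ± 0.29) were lower (adjusted p from 1.9e-06 to 0.044). Without the CON library 53 genes were higher and 25 lower, and without the library as a term 0 passed in either direction. In that fit 341 of 10187 genes were at an unadjusted edgeR p below 0.05.

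**Figure D3:**
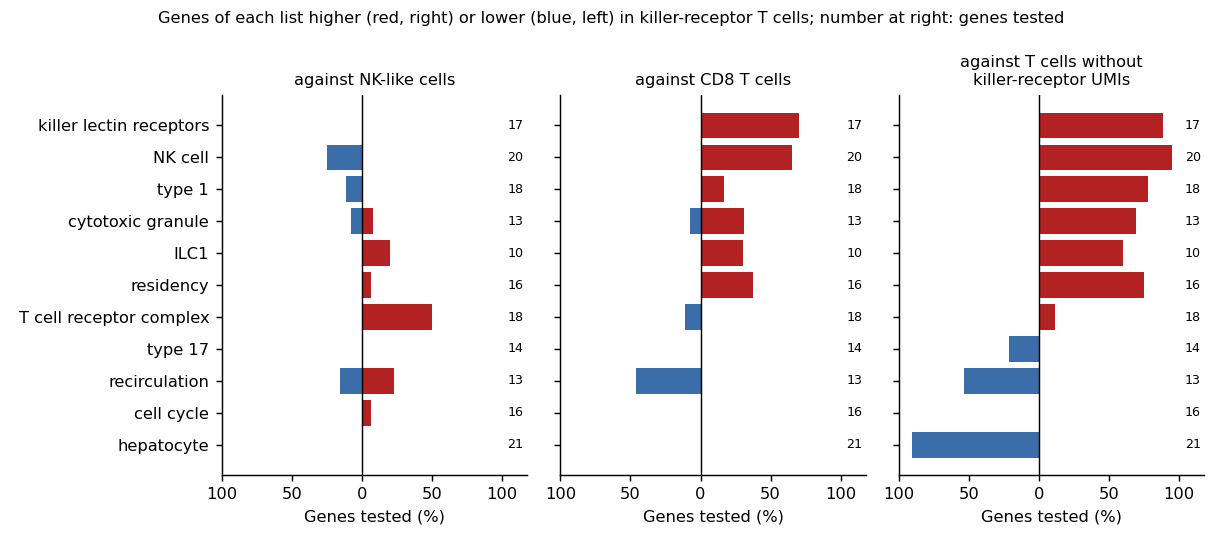
Percentage of the tested genes of 11 lists that were higher (red, to the right) or lower (blue, to the left) in killer-receptor T cells than in NK-like cells, CD8 T cells and T cells without killer-receptor UMIs (edgeR, adjusted p below 0.05), with the number of genes tested at the right of each bar. T cell genes stand out against NK-like cells (9 of 18), and killer lectin and NK genes against T cells without killer-receptor UMIs (15 of 17 and 19 of 20).

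The receptor constant genes divided the cells as follows. Trdc or Trgc4 without Trac was seen in 119 cells of CON (28.2%), 22 of HFD (12.7%) and 11 of CCL4 (18.0%). Trac without Trdc or Trgc4 was seen in 164 (38.9%), 65 (37.6%) and 21 (34.4%), both kinds in 43, 8 and 4, and neither in 96, 78 and 25. Of the cells read as only one of the 2 kinds, the gamma delta reading took 42.0% in CON (36.2 to 48.0), 25.3% in HFD (16.6 to 35.7) and 34.4% in CCL4 (18.6 to 53.2), and the interval of CCL4 overlapped with both others while those of CON and HFD did not overlap. They did overlap when Trdc no longer counted as a CD3/TCR gene (30.2% in CON, 24.4 to 36.5, and 20.7% in HFD, 12.6 to 31.1), with at least 2 CD3/TCR UMIs (33.0%, 26.6 to 39.9, and 20.5%, 12.0 to 31.6) and under each other alternative but the mitochondrial limit of 10%. In CON, 90 cells held Trdc, 97 held Trgc4 and 25 held both. The 2 genes differed in how often Trac was found beside them. Among CON cells with a Cd3d, Cd3e or Cd3g UMI, Trac was found in 3 of 40 with Trdc (7.50%, 1.57 to 20.4) and in 169 of 299 without (56.5%, 50.7 to 62.2). With Trgc4 it was found in 36 of 89 (40.4%, 30.2 to 51.4) and without Trgc4 in 136 of 250 (54.4%, 48.0 to 60.7). With Trgc1 it was found in 23 of 49 (46.9%) against 51.4% without, and with Trgc2 in 31 of 54 (57.4%) against 49.5%, with intervals that overlapped in both. In CON, Trdc and Trac thus rarely met in a cell, whereas gamma constant transcripts often stood beside Trac. A cell with Trgc4 and no Trac UMI may therefore be an alpha beta cell. The gamma delta reading names the transcripts found and not a receptor. Among such cells of HFD, Trac was found in 1 of 5 with Trdc (20%, 0.505 to 71.6) and in 65 of 156 without (41.7%, 33.8 to 49.8). These intervals overlapped.

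Between the gamma delta and alpha beta readings, 0 of 2016 genes tested were higher (0.0%) and 0 lower (0.0%) by edgeR with the library as a term. At an unadjusted p below 0.05 there were 78 of the 2016, and DESeq2 also called 0, with 12 of the 2016 below 0.05. Of 10 NK genes tested, 0 were called (median 0.68), and none of the genes given next passed. Ccl4, a chemokine gene outside the NK list, was at 0.58 ± 0.15 (edgeR adjusted p = 0.14). Tyrobp had 866, 328 and 459 CPM against 471, 235 and 182 (0.81 ± 0.20, edgeR adjusted p = 0.14), Prf1 347, 72.8 and 115 against 177, 43.8 and 33.1 (0.96 ± 0.24, adjusted p = 0.14), and Irf8 691, 182 and 229.7 against 372, 98.4 and 116 (0.87 ± 0.22, adjusted p = 0.14). Trbc2 and Bcl11b leaned to the alpha beta side (-0.77 ± 0.22 and -0.99 ± 0.29, adjusted p = 0.26 and 0.28). When Trdc no longer counted as a CD3/TCR gene, which left 2 libraries, Irf8, Prf1 and Tyrobp came to -1.40, -0.55 and -0.13.

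In CON, cells that owed their place to Trdc alone were above the other killer-receptor T cells in Ncr1, Prf1 and Eomes, genes that were chosen with these values known. They numbered 48 in CON, 5 in HFD and 5 in CCL4, and by definition had 0 UMIs in Cd3d, Cd3e, Cd3g and Trac. In CON, their Ncr1 level was 370 CPM (exact Poisson 95% interval 278 to 482), against 114 in the other 374 killer-receptor T cells and 312 in NK-like cells. Prf1 was at 725 (594 to 877), against 154 and 440, and Eomes, a regulator of NK cells, at 281 (201 to 381), against 91.3 and 155. NK-like cells, like these cells, were chosen for 0 UMIs in Cd3d, Cd3e, Cd3g and Trac, so low T cell genes in both follow in part from the selection and are given as a description. Bcl11b was at 34.2 (11.1 to 79.8), against 207 in the other killer-receptor T cells and 33.8 in NK-like cells. Cd5, Cd6, Trgc1 and Trgc2 had 0 UMIs, which allows a level of up to 20.5 CPM, below the 54.6, 93.9, 54.6 and 59.8 of the other cells. The cells in HFD and CCL4 were too few for most genes, with 3 Ncr1 UMIs in each. Trdc was found in 48 of 925 killer-receptor cells of CON that lacked Cd3d, Cd3e, Cd3g and Trac (5.19%, 3.85 to 6.82), in 5 of 192 in HFD (2.60%) and 5 of 165 in CCL4 (3.03%), and in 3 of 699 B cells of CON (0.429%, 0.0886 to 1.25). A transcript of unrearranged Trdc and a gamma delta receptor cannot be told apart in 3′ reads.

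**Figure D4:**
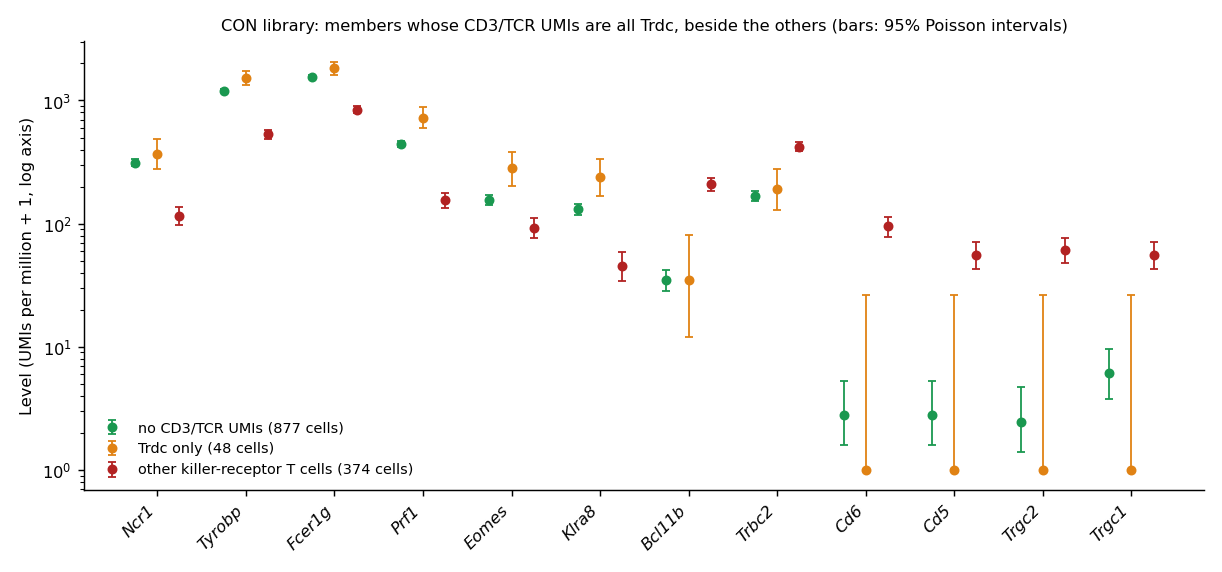
Level of 12 genes in the CON library (CPM plus 1, log axis, exact Poisson 95% intervals) in NK-like cells, in killer-receptor T cells whose CD3/TCR UMIs are all Trdc, and in the other killer-receptor T cells. The 48 Trdc-only cells sit at or above NK-like cells for Ncr1 (370 against 312) and Prf1 (725 against 440), and beside them for Bcl11b (34.2 against 33.8).

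Among killer-receptor T cells, the HFD library was lower than CON in NK genes and higher in hepatocyte genes. Of 2065 genes with at least 100 CPM in either library, 262 were more than 2-fold higher in HFD (12.7%) and 263 more than 2-fold lower (12.7%), by the ratio of levels with 20 added to each. With levels taken outside mitochondrial, ribosomal protein and hepatocyte genes, the split was 352 and 268 of 2503. Of those higher, 16 exceeded the level over all barcodes of the HFD library, and of those lower, 226 exceeded the level over all barcodes of CON. Irf8 had 87.1 CPM in HFD and 415 in CON (ratio 0.210, exact 95% interval 0.148 to 0.289), Prf1 43.6 and 217 (0.201, 0.121 to 0.316) and Gzma 638 and 1458 (0.438, 0.386 to 0.495). Of 10389 genes with at least 10 UMIs over the killer-receptor T cells, 20.1% had an interval below 1 and 12.8% above, with a median ratio of 0.820. Of 21 NK genes, 19 had an interval below 1 and 0 above (median ratio 0.317), and of 18 T cell genes 14 lay below and 0 above (0.537). NK-like cells were lower in HFD as well, with 308 against 933 CPM for Irf8 and 133 against 440.1 for Prf1. Xcl1 with 751 and 765 (0.982, 0.866 to 1.11) and Ifng with 159 and 191 (0.834, 0.634 to 1.09) did not differ beyond counting error.

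Most genes higher in HFD did not exceed their level over all barcodes of that library. Of 21 hepatocyte genes, 18 had an interval above 1 and 3 below (median ratio 1.77), and the hepatocyte genes together had 135869 CPM in HFD and 63100 in CON. Among the genes that did exceed it, Srebf1, a regulator of lipid synthesis, had 122 CPM against 34.9, and 110.0 over all barcodes of HFD. Gsn, which encodes the actin-severing protein gelsolin, had 122 against 6.83, and 48.0 over all barcodes, and Fabp4, a fatty acid binding protein, 113 against 34.9, and 54.1 over all barcodes. Monocyte and macrophage genes summed to 505 CPM in HFD and 342 in CON, with Lyz2 the most abundant of them in HFD at 237 and held by 14 cells. The B cell genes summed to 889 and 274. The part of other cells' RNA in these genes was not tested.

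The CCL4 library rested on 61 cells and 157643 UMIs. Of 2080 genes, 332 were more than 2-fold higher than in CON (16.0%) and 478 more than 2-fold lower (23.0%), and with levels taken outside mitochondrial, ribosomal protein and hepatocyte genes the split was 485 and 464 of 2567, so the balance of directions depends on the scaling. Heat shock genes were among those with the lowest ratios. Hspa1a had 25.4 CPM against 499 in CON, Dnajb1 19.0 against 289.95 and Hspa1b 95.2 against 591. In HFD, Hspa1a and Hspa1b were at 231 and 340, between the other libraries. These genes are known to respond to heat and cell handling, which were not measured here. T cells without killer-receptor UMIs had the same order, with 28.3 for Hspa1a in CCL4 and 137 in CON. Of 20 immediate-early genes, 15 had an interval below 1 in CCL4 and 17 in HFD, while Fos did not differ from CON beyond counting error in either library (539 in CCL4, 555 in HFD and 569 in CON).

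NK and T cell genes were lower in CCL4 as in HFD, both set against the same CON library. Of the 10389 genes, 13.8% had an interval below 1 and 8.45% above, with a median ratio of 0.696. Of 21 NK genes, 16 had an interval below 1 and 0 above (median ratio 0.361), and of 18 T cell genes 14 and 0 (0.440). Irf8 had 146 CPM (ratio 0.351, 0.221 to 0.533), Gzmb 311 against 1069 (0.291, 0.214 to 0.386) and Inpp4b, a phosphatase of inositol lipids, 19.0 against 179.9. In NK-like cells the ratios were 0.429 for Irf8 and 0.238 for Gzmb. Ccl5, with 5830 in CCL4 and 7683 in CON (0.759, 0.708 to 0.812), was closer to its CON level. Of 15 cell cycle genes, 8 had an interval below 1, and Mki67 had 75, 7 and 0 UMIs in CON, HFD and CCL4, in 15 cells of CON. Of the 332 genes more than 2-fold higher in CCL4, 69 reached the level over all barcodes of that library. Of the 478 more than 2-fold lower, 427 reached the level over all barcodes of CON. Rarres2 (1097 against 103) and Rbp4 (5868 against 1153), both among those higher, were near the level over all barcodes of CCL4 (1097 and 5797). Hepatocyte genes summed to 187798 CPM.

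**Figure D5:**
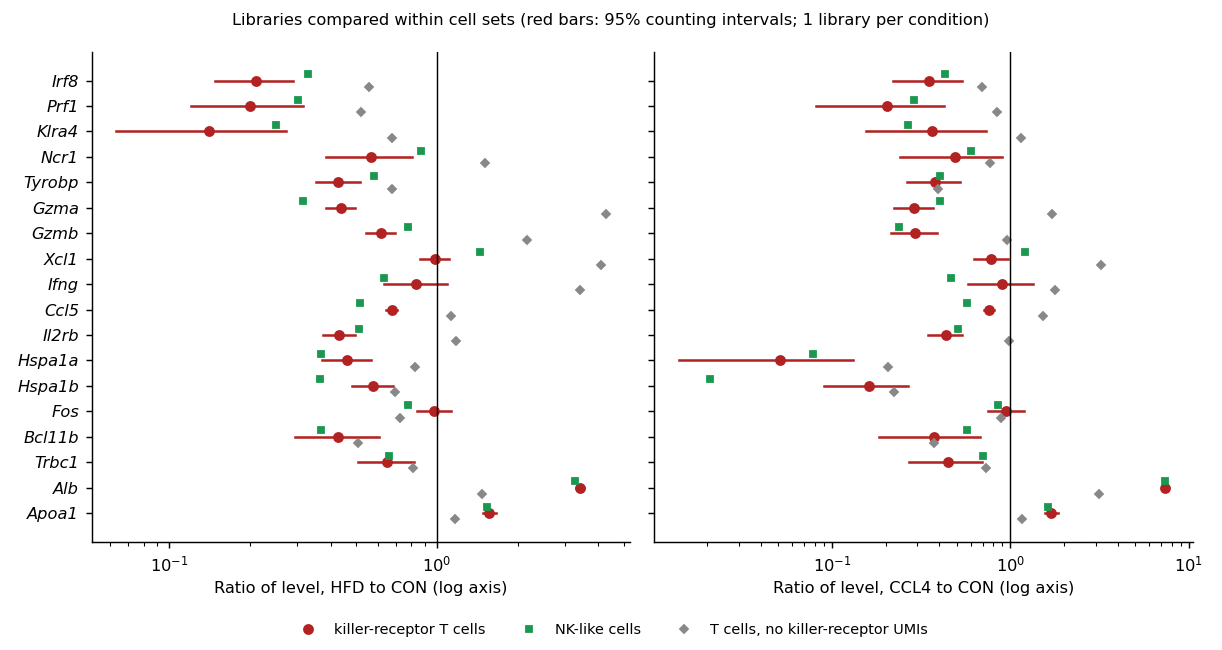
Ratio of the level in HFD (left) or CCL4 (right) to that in CON for 18 genes (log axes), in killer-receptor T cells (red, with exact 95% counting intervals), NK-like cells and T cells without killer-receptor UMIs, from 1 library per condition. Irf8 (0.210 and 0.351) and Prf1 (0.201 and 0.205) lie far below 1 in killer-receptor T cells, while Xcl1 (0.982 and 0.779) and Ifng (0.834 and 0.899) lie nearer to it and Alb lies above it.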

How the data were processed

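The authors made the deposited UMI counts with Cell Ranger 7.2.0 (per the file headers) from 10x Genomics 3′ libraries. The genome build is given as mm10 in the study's methods and as GRCm39 in the submitters' processing notes, and no coordinate was taken from the counts. Each file held raw counts for 55357 features, with totals and medians as reported above, and all values used here were computed from these counts. Cells were selected and summed with Python 3.11.15 (numpy 2.4.6, pandas 2.3.3, scipy 1.17.1), and no doublet caller was run. The members and gene lists were chosen with earlier results of these data known. Sums per library and set were fitted with edgeR 4.0.16 (R 4.3.3, limma 3.58.1), with TMM scaling, filterByExpr, a false discovery rate of 0.05 and the library as a term, after tests on simulated data. DESeq2 1.42.0 and other selections, filters and scalings were alternatives. A subset entered a fit with at least 10 cells in a library. Libraries were compared by ratios with exact conditional binomial intervals, and proportions have Clopper-Pearson intervals. The intervals and the limit of 3 counts that goes with a count of 0 cover counting error only. Genes named in the text were the selection genes, list genes with at least 10 UMIs over the members, the 12 highest and 12 lowest called fold changes with the same sign in all libraries and at least 50 CPM, and the 10 highest and 10 lowest library ratios at or above the level of all barcodes. Mitochondrial, ribosomal, immunoglobulin and predicted genes were left out of the last 2 groups. Il17a, Il23r, Trav11 and the B cell, myeloid and plasmacytoid genes were named as markers whatever their count. Promoters came from a RefSeq table. Some items are not reported here.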

Additional observations from a re-analysis of the deposited data

Results flagged for a closer look

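Within 84 genes of 6 lists, each set against NK-like cells, CD8 T cells and T cells without killer-receptor UMIs (252 pairs of gene and set), 10 pairs had ratios on opposite sides of 1 in different libraries, with counting intervals that excluded 1. Each is 1 library against another, and the difference was not tested. The macrophage complement genes lay above the comparison set in HFD and below it in CON. C1qc was at 3.92 against NK-like cells in HFD and 0.135 in CON, at 3.69 and 0.107 against T cells without killer-receptor UMIs, and at 4.02 and 0.117 against CD8 T cells. C1qa was at 5.00 and 0.0631 against T cells without killer-receptor UMIs and at 2.76 and 0.0973 against CD8 T cells. These values rest on 12 C1qa UMIs in 4 cells and 15 C1qc UMIs in 6 cells of HFD. Lyz2 was at 1.57 against CD8 T cells in HFD and at 0 in CCL4.

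Klra1, which encodes an inhibitory Ly49 receptor, was above NK-like cells in CON (2.42) and HFD (4.53) and had 0 UMIs in the CCL4 cells. Ccl5 was above NK-like cells in HFD (1.14) and CCL4 (1.15) and below them in CON (0.864). Gzma was above CD8 T cells in CON (1.25) and CCL4 (2.41) and below them in HFD (0.584). Cd6 was above T cells without killer-receptor UMIs in CON (1.48) and had 0 UMIs in CCL4.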

How the results depend on the processing

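The CCL4 cells were few (61), the intervals cover counting error, and 130 of 185 recomputed counts and shares stayed within 1.5 times or the counting interval. In each list below, pairs of counts are genes higher and lower. Against NK-like cells (57 and 32) the counts were 99 and 121 without a filter on low counts, 3 and 0 without the library as a term, 137 and 115 with at least 2 CD3/TCR UMIs, and 32 higher without barcodes over 10% hepatocyte transcripts. There were 16 lower with Cd7 not counted and 64 lower among cells without an Ncr1 UMI. Leaving out a library gave 21 to 51 higher and 19 to 40 lower. Against T cells without killer-receptor UMIs (572 and 606) they were 5 and 0 without the library as a term, 224 and 151 with 2 CD3/TCR UMIs, 332 and 245 without the 8% of barcodes with the most UMIs, and 116 and 70 without hepatocyte-rich barcodes. There were 391 lower by DESeq2, 967 without the filter and 334 without Ncr1-positive cells, and leaving out a library gave 124 to 429 higher and 92 to 610 lower. Against CD8 T cells (126 and 43) they were 0 and 0 without the library as a term, 69 higher without hepatocyte-rich barcodes, and 131, 92 and 69 lower without the filter, with 2 CD3/TCR UMIs and with 3 killer-receptor UMIs. Leaving out a library gave 53 to 97 higher and 25 to 49 lower. For the gamma delta against the alpha beta reading (0 and 0) the counts were 1 and 1 without the filter. They were 1 and 6 with 2 CD3/TCR UMIs and 1 and 3 with Cd7 not counted. There were 3 higher without the deepest barcodes, 2 lower with 3 killer-receptor UMIs and 3 lower without Ncr1-positive cells. Except without the filter and without the deepest barcodes, these counts rest on CON and HFD alone, since fewer than 10 cells of a kind were left in CCL4, and on 3196 to 4348 genes in place of 2016, so the setting and the lost library cannot be told apart. Leaving out a library gave 0 higher and 0 to 1 lower. This last comparison was not run without hepatocyte-rich barcodes, which left 22 cells in HFD and 0 in CCL4.

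With at least 3 killer-receptor UMIs, 63 HFD and 17 CCL4 cells remained, and with 2 CD3/TCR UMIs 38 in CCL4. The gamma delta share in CON was 33.0% with 2 CD3/TCR UMIs and 30.2% with Trdc not counted. At a minimum of 50 CPM, 398 of 3911 genes were lower in HFD, against 263 of 2065 at the main minimum. In CCL4, 796 of 3973 genes were lower, against 478 of 2080. In both libraries this was a smaller share of the genes tested. Among gamma delta cells alone, 520 of 2377 genes were higher in CCL4 and 582 lower, against 332 and 478 of 2080. The gamma delta counts rest on 11 CCL4 cells with 26120 UMIs, where 1 UMI is 38.3 CPM. Thinned to 1500 UMIs, 16.9% of CON cells held Ncr1 and 25.1% Bcl11b. Among log2 fold changes, Ccr9 against NK-like cells turned to 0.24 with Cd7 not counted. Against T cells without killer-receptor UMIs, leaving out hepatocyte-rich barcodes gave 0.039 for Ahsg, 0.050 for Alb, 0.0028 for Fgb, 0.047 for Idi1, 0.15 for Serpina1a, 0.090 for Serpina1b, 0.011 for Serpina1c and 0.062 for Trf, and leaving out a library gave -0.050 to 1.24 for Tgfb1 and -3.55 to 3.39 for Trdv4, both lowest without CON. Between the gamma delta and alpha beta readings, Ccl4 turned to -0.077 with 2 CD3/TCR UMIs. With Trdc not counted, the values between these readings were -0.25 for Ccl4, -1.40 for Irf8, -0.97 for Klra4, -0.55 for Prf1 and -0.13 for Tyrobp. The causes were not tested. The settings with Trdc not counted and without Ncr1-positive cells were chosen after seeing the data. Between conditions, no paired analysis was possible because each has a single library; the comparisons of sets were paired by library through the library term.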

Other observations

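At the level of single cells, type 1 genes (Tbx21, Ifng or Eomes) were found in 231 of 422 killer-receptor T cells in CON (54.7%), 63 in HFD (36.4%) and 28 in CCL4 (45.9%), in 55.9%, 29.4% and 38.1% of NK-like cells, in 40.0%, 30.6% and 26.5% of CD8 T cells and in 14.8%, 20.1% and 14.1% of T cells without killer-receptor UMIs. Cd4, the coreceptor of helper T cells, had 30.4 CPM in CON, 4.36 in HFD and 0.0 in CCL4, against 59.2, 33.0 and 16.8 in T cells without killer-receptor UMIs (log2 fold change -1.40 ± 0.36, edgeR adjusted p = 0.016). Trgc2 did not pass against CD8 T cells (0.26 ± 0.28, adjusted p = 0.91), whereas Trgc1 was higher (3.07 ± 0.39, adjusted p = 9.5e-05).

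Transcripts of blood cells were unevenly spread. S100a8 had 1245 UMIs in 57 killer-receptor T cells of CON, 418 of them in a single cell, and Hbb-bs had 3106 UMIs in 111 cells, with 721 in a single cell. In CCL4, C1qa, Lyz2 and S100a8 had 0 UMIs.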
